A study of Mus musculus with 14 samples.

Results

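The question was whether pressure overload changed the ventricle differently in libraries labelled Rad knockout than in libraries labelled WT. It was answered gene by gene with the difference of the TAC effects, that is the log2 change of TAC over sham in the Rad knockout label minus the log2 change of TAC over sham in the WT label. All 14 of the 14 sequenced libraries entered: 4 Rad knockout TAC, 3 Rad knockout sham, 4 WT TAC and 3 WT sham libraries of polyA-enriched RNA from mouse heart ventricle. Of 22136 genes present in both deposited tables, 14731 had enough counts to be tested. TAC preceded tamoxifen by 4 weeks, and ventricles were collected beyond 2 months from TAC and beyond 1 month from the knockout. The labels name no promoter, Cre line, strain, sex or age, and leave it unsaid whether each library is a different mouse. The p-values therefore rest on library-to-library spread, part of which may be technical.

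TAC, transverse aortic constriction, narrows the aorta and loads the left ventricle with pressure. Loaded cardiomyocytes are known to turn on a fetal and stretch-responsive programme of natriuretic peptides, Ankrd1 and beta-myosin (Myh7), fibroblasts lay down matrix, and genes of fatty acid use and repolarising potassium channels tend to fall. Rad, encoded by Rrad, is a small RGK GTPase that binds the beta subunit of the L-type calcium channel and holds the channel's activity down, and phosphorylation of Rad by protein kinase A releases that brake under beta-adrenergic drive.

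The labels were first set beside the levels of the targeted gene. Rrad had 164, 242, 199 and 119 CPM in the KO-labelled TAC libraries and 162, 182 and 228 CPM in the KO-labelled sham libraries, against 128, 223, 242 and 208 CPM in the WT-labelled TAC and 213, 229 and 199.6 CPM in the WT-labelled sham libraries (CPM: counts per 1000000, with TMM scaling). The 4 groups overlapped, and by edgeR's quasi-likelihood test Rrad differed by -0.17 (log2; SE 0.23, adjusted p = 0.944) between KO-labelled and WT-labelled sham libraries and by -0.14 (SE 0.20, adjusted p = 0.93) between the TAC libraries. Counts over the whole gene do not show whether a deleted stretch is missing, so these levels are no check of the knockout, and the groups are called by their labels throughout. Esr1 did not follow the labels. This gene encodes the oestrogen receptor whose ligand-binding domain is a common part of tamoxifen-inducible Cre proteins. Esr1 had 1123, 339, 1338 and 2463 CPM in the KO-labelled TAC libraries and 2020.3, 1.12 and 1934 CPM in the KO-labelled sham libraries, against 0.919, 1.61, 0.556 and 1.19 CPM in the WT-labelled TAC and 1.27, 1505 and 2226 CPM in the WT-labelled sham libraries. Esr1 was thus high in all KO-labelled TAC and low in all WT-labelled TAC libraries, but high in 2 of 3 sham libraries under either label. In 3 sham libraries, KO-labelled sham 2 and WT-labelled sham 2 and 3, it was unlike the TAC libraries of the same label. Where leaving these 3 out turned the sign of a named difference or list median or moved it by over 1.5 times, the value without them is given; without them 1 WT-labelled sham library remains, which is then assumed to vary like the other groups. Total counts were 14546176 to 23314792 per library, and 18.2 to 28.4% of counts came from mitochondrially encoded genes.

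No gene passed the threshold for a difference of the TAC effects. At an adjusted p under 0.05, edgeR called 0 of 14731 genes (0%), and the lowest adjusted p was 0.503. At an unadjusted p under 0.05, 754 genes passed (5.12%), of which 414 (2.81%) had a higher and 340 (2.31%) a lower TAC effect in the KO label. The 5% that the threshold passes on its own is 737 genes. DESeq2 on the same counts called 8 genes and passed 778 at an unadjusted p under 0.05. Its 7 genes with a higher TAC effect in the KO label were Esr1, Fam81a, Gm19461, Gm33543, Irf2bp2, Pdzrn4 and Slc6a17, and its 1 lower gene was Pim1. The lowest adjusted p of DESeq2 was 0.00866. limma-voom called 0 genes and passed 711 unadjusted.

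A count of 0 bounds the differences unevenly. The median SE of a difference was 0.237 (log2), and the median half-width of its 95% interval was 0.504. The interval lay within 1 log2 unit of 0 for 9806 genes (66.6%), so for these a 2-fold difference of the TAC effects lay outside the interval. Abundant genes were the well measured ones. This share was 93.8% among genes with a mean of at least 1000 counts, 67.7% at 50 to 200 counts and 11.5% at 20 to 50 counts. Over all genes tested the median difference was 0.00, and the middle 95% of genes lay between -0.92 and 1.04. In simulated counts with these group sizes and 14731 genes, the same fit recovered 47% of genes given a 2-fold difference and 82% of those given a 4-fold difference. There 100 genes at each size were changed at once, which eases the adjusted threshold for all of them. Each gene was drawn by itself, without the Esr1 split of the sham libraries. These shares may therefore be higher than those behind the count of 0.

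Genes that TAC changed in both labels moved the same way. In this model TAC changed 207 genes in the KO label (1.41%; 135 rose, 72 fell) and 560 in the WT label (3.8%; 338 rose, 222 fell). Single libraries moved these counts: the KO count was 0 without KO-labelled sham 1 or sham 2, 8 without KO-labelled sham 3, 43, 59, 96 and 453 without KO-labelled TAC 1, 2, 3 and 4, and 135 and 328 without WT-labelled sham 3 and WT-labelled TAC 3. The WT count was 48, 169 and 370 without WT-labelled sham 3, 2 and 1 and 230 without WT-labelled TAC 3. Without the 3 sham libraries named above, 0 genes were called in either label, members of the gene lists included. With all libraries, 98 passed in both labels, and all 98 had the same direction. Their median absolute TAC effect was 1.37 (log2) in the KO label and 1.31 in the WT label, and the lowest adjusted p of a difference among them was 0.904. The 4 examples that follow had the smallest p of the TAC effect in the WT label, a choice that favours large effects there. Adamtsl2, a secreted matrix protein, had 69.01, 56.6, 33.3 and 41.6 CPM in the KO-labelled TAC libraries and 19.8, 17.7 and 19.7 CPM in the KO-labelled sham libraries, against 47.2, 61.2, 59.6 and 34.9 CPM in the WT-labelled TAC and 10.1, 10.9 and 11.6 CPM in the WT-labelled sham libraries. In both labels its TAC libraries lay above all sham libraries, with a TAC effect of 1.39 (log2) in the KO label and 2.22 in the WT label. The TAC effect of Myot, which encodes the Z-disc protein myotilin, was 1.65 in the KO label and 2.19 in the WT label. Mybpc2, the fast skeletal myosin-binding protein C, rose by 1.66 in the KO label and 2.10 in the WT label. Without the 3 sham libraries the difference between labels turned its sign for Myot (0.04) and Mybpc2 (0.10). For Eln (elastin) the TAC effect was 1.36 in the KO label and 2.04 in the WT label.

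Passing in 1 label alone does not by itself make a difference between labels, and edgeR called none of these genes for the difference. DESeq2 did call some of them, such as Pim1 and Slc6a17. Of the 462 genes past the threshold in the WT label alone, 435 (94.2%) had the same sign in the KO label, with a median absolute effect of 0.44 in the KO label and 0.90 in the WT label. Of the 109 past it in the KO label alone, 98 (89.9%) had the same sign in the WT label, with medians of 1.07 and 0.45. The lowest adjusted p of the difference was 0.503 in either class. Selection for a large effect in 1 label sets these medians apart by itself, so nothing is read from their gap. Over all 14731 genes, 68.1% had the same sign in the 2 labels, and the effects had a Pearson r of 0.513 across genes, which are not independent replicates. The 2 effects share no library. The number called in both depended on single sham libraries. It was 0 without KO-labelled sham 1 or KO-labelled sham 2, 0 without the 3 sham libraries named above, 1 without KO-labelled sham 3, 19 without WT-labelled sham 3 and 206 without KO-labelled TAC 4, with 0 of opposite direction in all of these fits. The authors' deposited tables, made per label, list 721 genes at an adjusted p under 0.05 in the KO label and 910 in the WT label. They share 292 genes, 40.5% of the KO list and 32.1% of the WT list, all 292 with the same direction.

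**Figure D1:**
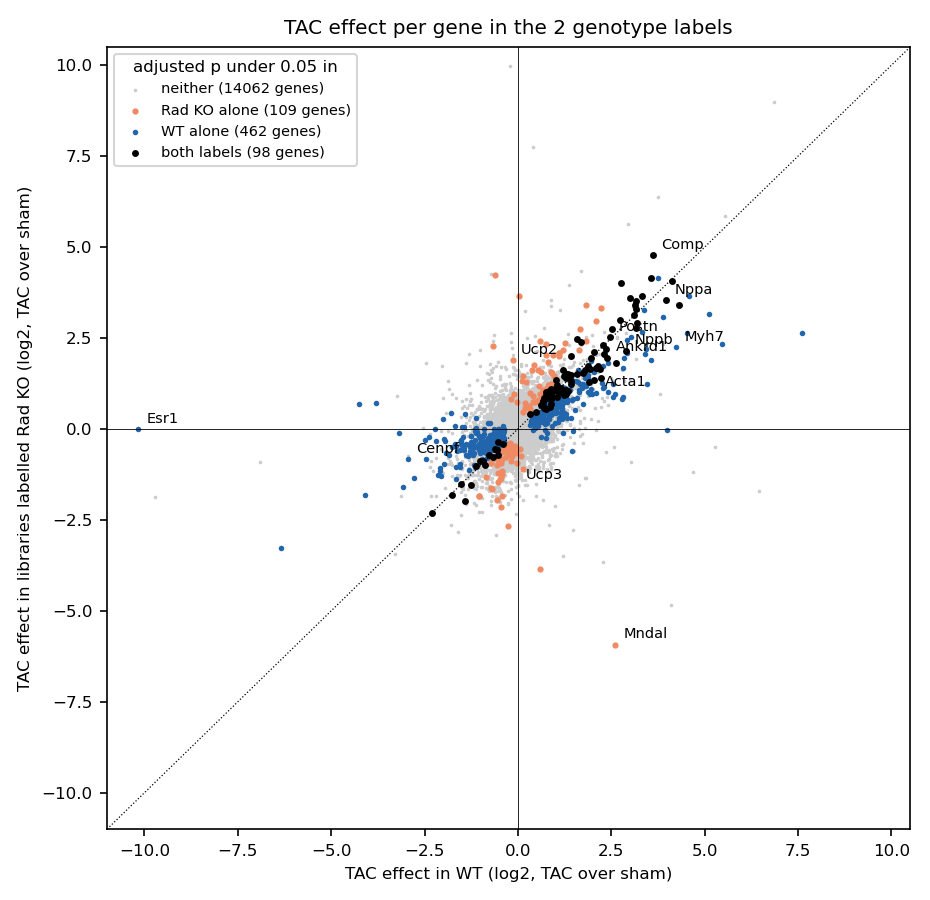
Log2 TAC effect (TAC over sham) of each of 14731 genes in the libraries labelled Rad KO (vertical) against that in WT (horizontal), coloured by the label in which edgeR's adjusted p was under 0.05; the dotted line marks equal effects. The 98 genes past the threshold in both labels all lie in the quadrants of equal sign, while Mndal and Esr1 lie far from the line.

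Few genes moved in opposite directions. In 15 genes (0.102%) the TAC libraries lay wholly above the sham libraries in one label and wholly below them in the other, while 680 genes (4.62%) separated in the same direction in both. With 4 TAC and 3 sham libraries per label some genes separate so by chance alone, and the number of 15 was not tested against that. Grin2c, which encodes a subunit of the NMDA glutamate receptor, had 5.78, 17.4, 7.91 and 5.14 CPM in the KO-labelled TAC libraries and 4.01, 0.791 and 3.43 CPM in the KO-labelled sham libraries, against 1.31, 1.61, 0.835 and 0.461 CPM in the WT-labelled TAC and 1.62, 6.52 and 5.08 CPM in the WT-labelled sham libraries. KO-labelled TAC libraries lay above and WT-labelled TAC libraries below the sham libraries of their label. Its difference was 3.75 (log2; SE 0.82; edgeR adjusted p = 0.503). Sham levels of Grin2c were low in the same libraries in which Esr1 was low, and without the 3 sham libraries named above the difference was 1.89. Ddn, the gene for dendrin, showed the same arrangement at 0.375 to 1.63 CPM, with a difference of 2.43 (SE 0.53; edgeR adjusted p = 0.503) and 2.32 without the 3 libraries. Pcna, the sliding clamp of DNA replication, did so with a small difference of 0.39 (SE 0.15; edgeR adjusted p = 0.882).

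Many markers of cardiac load rose under both labels, and the differences between labels did not pass the test. Of 18 listed load-responsive cardiomyocyte genes 15 were tested. This list, like the other lists below, was chosen with earlier results of these data known. Its counts beside the background therefore describe these libraries and are no test. By edgeR, 6 of the 15 rose with TAC in the KO label (background of rising genes 0.916%) and 12 of the 15 in the WT label (background 2.29%). The difference was negative for 14 of 15, with a median of -0.74 (log2) beside 0.00 over all genes. The median TAC effect was 1.46 in the KO label and 2.10 in the WT label. None of the 15 differences was called, and 2 passed an unadjusted p under 0.05 in the lower direction (background 2.31%). The median was -1.06 to -0.43 when single libraries were left out and -0.28 without the 3 sham libraries. The summed level of the list was 8796 to 21299 CPM in the KO-labelled TAC and 5078 to 5923 CPM in the KO-labelled sham libraries, against 13987 to 26772 CPM in the WT-labelled TAC and 5107 to 5294 CPM in the WT-labelled sham libraries. TAC and sham libraries did not overlap under either label, whereas the 2 TAC groups overlapped.

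The natriuretic peptides, hormones secreted by stretched cardiomyocytes, spread widely between TAC libraries. Nppa, atrial natriuretic peptide, had 244, 1350.1, 148 and 262 CPM in the KO-labelled TAC libraries and 25.7, 70.8 and 32.7 CPM in the KO-labelled sham libraries, against 376, 928, 1716 and 248 CPM in the WT-labelled TAC and 69.5, 47.9 and 39.3 CPM in the WT-labelled sham libraries. Every TAC library exceeded every sham library. KO-labelled TAC 2 stood far above the other 3 of its group. The difference was -0.43 (log2; 95% interval -2.54 to 1.69; edgeR adjusted p = 0.989), and it was 0.55 without the 3 sham libraries. Nppb, B-type natriuretic peptide, had 261, 605, 297 and 315 CPM in the KO-labelled TAC libraries and 47.7, 86.3 and 116 CPM in the KO-labelled sham libraries, against 451, 784, 1131 and 237 CPM in the WT-labelled TAC and 119, 65.8 and 77.5 CPM in the WT-labelled sham libraries. Its TAC effects were 2.15 in the KO label and 2.89 in the WT label, with a difference of -0.74 (interval -2.04 to 0.56; edgeR adjusted p = 0.979), which was -0.27 without the 3. For both peptides the interval holds 0 and a 2-fold difference in the lower direction alike.

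Among contractile and stretch genes Myh7 had the largest negative estimate. Myh7, the slow beta-myosin heavy chain, had 1217, 2260.0, 809 and 789 CPM in the KO-labelled TAC libraries and 491, 142 and 163 CPM in the KO-labelled sham libraries, against 1081, 2579, 6904 and 2223 CPM in the WT-labelled TAC and 183, 154 and 174 CPM in the WT-labelled sham libraries. WT-labelled TAC 3 was the highest of all libraries, and KO-labelled sham 1 was well above its 2 companions. The TAC effect was 2.26 (log2) in the KO label and 4.23 in the WT label, a difference of -1.97 (SE 0.76, interval -3.59 to -0.35; edgeR adjusted p = 0.924). Without KO-labelled sham 1 the difference was -1.17, and without the 3 sham libraries it was -2.17. Myh7 and Myh6 are near-identical in long stretches, and counts could be split between them. Myh6, the fast alpha-myosin of the adult mouse ventricle, differed by -0.15 (interval -0.82 to 0.51; edgeR adjusted p = 0.988), and by -0.02 without the 3.

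Acta1, skeletal alpha-actin, had 2545, 3275, 1273 and 1989.8 CPM in the KO-labelled TAC libraries and 1017, 714 and 1679 CPM in the KO-labelled sham libraries, against 3546, 6289, 1863 and 2583 CPM in the WT-labelled TAC and 181, 1135 and 1183 CPM in the WT-labelled sham libraries. WT-labelled sham 1 was the lowest library by far, and KO-labelled TAC and sham libraries overlapped. Its difference was -1.10 (SE 0.74; edgeR adjusted p = 0.979); it was -3.55 (adjusted p = 1) when WT-labelled sham 1 was the only sham library of its label, and -0.62 without WT-labelled sham 1. Ankrd1, a titin-associated stretch-responsive repeat protein, had 2796, 5916, 1918 and 1698 CPM in the KO-labelled TAC libraries and 595, 1026 and 752 CPM in the KO-labelled sham libraries, against 3430.0, 6214, 7176 and 3744 CPM in the WT-labelled TAC and 1239, 1069.7 and 634 CPM in the WT-labelled sham libraries. Its TAC libraries exceeded the sham libraries under both labels, and the difference was -0.43 (interval -1.58 to 0.73; edgeR adjusted p = 0.98), with a turned sign, 0.14, without the 3 sham libraries. Xirp2, which binds actin at the intercalated disc, differed by -0.86 (SE 0.38; edgeR adjusted p = 0.949), and by -0.47 without the 3. Rcan1, an inhibitor of calcineurin, differed by -0.85 (SE 0.48; edgeR adjusted p = 0.965), and by -0.51 without the 3. Cd44, a hyaluronan receptor, was the 1 member with a positive estimate (0.48).

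**Figure D2:**
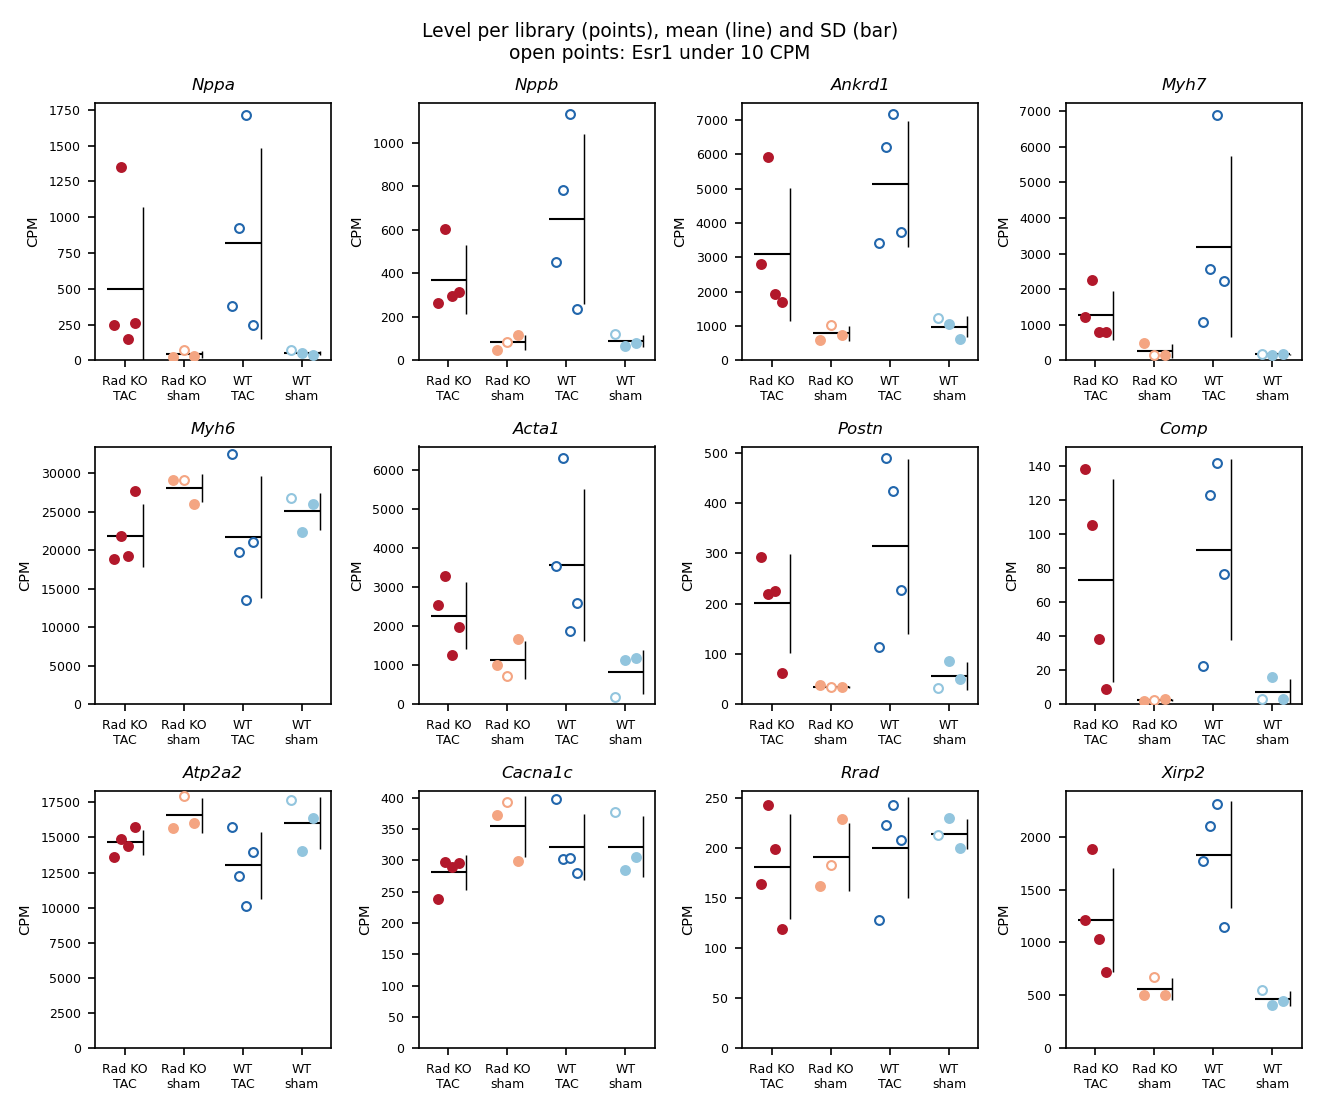
CPM per library of 12 genes in Rad KO TAC, Rad KO sham, WT TAC and WT sham libraries; each point is 1 library, the line the mean, the bar the SD, and open points mark libraries with Esr1 under 10 CPM. Nppa, Nppb, Ankrd1 and Myh7 sit higher in TAC than in sham libraries of either label, the 2 TAC groups overlap, and Rrad overlaps in all 4 groups.

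The 28 genes with the smallest p, 14 in each direction among genes averaging 20 counts or more in whichever group was higher, were described next as the upper end of the ranking and not as calls, since their edgeR adjusted p ran from 0.503 to 0.672. Without the 3 sham libraries 22 had at least 0.5 of their difference and 6 had less (Acsf2, Ano10, Cacna2d1, Chrna2, Fam81a and Ucp2). The genes were picked from the fit with all libraries, and the refit kept the same TAC libraries. Much of the retained size is therefore built in, and these counts are no check of the ranking.

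Pim1 was first in the ranking. It encodes a serine/threonine kinase with a known role in cardiomyocyte survival and lies at chromosome 17, 29490812 to 29496111 (GRCm38). Pim1 had 10.4, 10.4, 11.7 and 11.7 CPM in the KO-labelled TAC libraries and 18.7, 19.96 and 17.01 CPM in the KO-labelled sham libraries, against 17.7, 17.8, 18.5 and 17.1 CPM in the WT-labelled TAC and 18.3, 15.4 and 16.4 CPM in the WT-labelled sham libraries. The 4 KO-labelled TAC libraries were below all 10 others, which overlapped each other. Pim1 fell with TAC in the KO label (-0.75, log2; edgeR adjusted p = 0.0198) and gave 0.09 in the WT label (adjusted p = 0.722). The difference was -0.83 (SE 0.15, interval -1.14 to -0.52), with an edgeR adjusted p of 0.503 and a DESeq2 adjusted p of 0.00866. Pim1 was also 1 of the 2 genes (0.0136% of those tested) that differed between the TAC groups directly (-0.68; edgeR adjusted p = 0.0234), a contrast that uses the same TAC libraries. Without the 3 sham libraries its difference was -0.64.

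Irf2bp2, a transcriptional corepressor that binds IRF2, moved the other way. Irf2bp2 (chromosome 8, 126588296 to 126593986) had 69.9, 60.5, 72.6 and 78.4 CPM in the KO-labelled TAC libraries and 40.01, 37.4 and 41.2 CPM in the KO-labelled sham libraries, against 42.4, 40.3, 61.1 and 53.1 CPM in the WT-labelled TAC and 51.8, 51.3 and 66.4 CPM in the WT-labelled sham libraries. KO-labelled sham libraries were the lowest group but for a single overlap with the WT-labelled TAC libraries, and the KO-labelled TAC libraries lay above them without overlap. The difference was 1.03 (SE 0.20, interval 0.60 to 1.46; edgeR adjusted p = 0.503; DESeq2 adjusted p = 0.0109), and 0.87 without the 3 sham libraries. Rasal2, a Ras GTPase-activating protein, was again lower in the difference. It had 32.9, 34.6, 36.2 and 43.7 CPM in the KO-labelled TAC libraries and 78.6, 74.6 and 56.4 CPM in the KO-labelled sham libraries, against 50.8, 43.9, 35.2 and 38.2 CPM in the WT-labelled TAC and 50.02, 35.7 and 41.3 CPM in the WT-labelled sham libraries. Its level was highest in KO-labelled sham, and the difference was -0.91 (SE 0.22; edgeR adjusted p = 0.642).

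Ucp2, a mitochondrial inner-membrane carrier of the uncoupling protein family, had 308, 211, 215 and 166 CPM in the KO-labelled TAC libraries and 60.6, 53.96 and 67.1 CPM in the KO-labelled sham libraries, against 112, 85.8, 45.8 and 106 CPM in the WT-labelled TAC and 42.3, 122 and 125 CPM in the WT-labelled sham libraries. KO-labelled TAC libraries were above all others, and among the sham libraries of the WT label the one with low Esr1 was far below the other 2. Ucp2 rose with TAC in the KO label (1.89; edgeR adjusted p = 0.0236) and gave -0.14 in the WT label (adjusted p = 0.875). The difference was 2.03 (SE 0.47; edgeR adjusted p = 0.642), 0.77 without the 3 sham libraries, and it was called without WT-labelled sham 1 (edgeR adjusted p = 0.0423). In Fam81a, Gm33543 and Grin2c every library with low Esr1 was below every library with high Esr1. Fam81a, whose product is found at neuronal synapses, had 26.8, 43.7, 27.1 and 29.6 CPM in the KO-labelled TAC libraries and 25.3, 19.8 and 27.03 CPM in the KO-labelled sham libraries, against 14.8, 12.9, 7.46 and 10.6 CPM in the WT-labelled TAC and 15.8, 38.3 and 37.3 CPM in the WT-labelled sham libraries. Its difference was 1.81 (SE 0.40; edgeR adjusted p = 0.503) with all libraries and 0.75 without the 3. Ano10, of the anoctamin membrane protein family, had 44.4, 51.3, 70.3 and 90.6 CPM in the KO-labelled TAC libraries and 83.4, 59.5 and 88.1 CPM in the KO-labelled sham libraries, against 26.8, 22.6, 20.98 and 32.9 CPM in the WT-labelled TAC and 50.7, 123 and 135 CPM in the WT-labelled sham libraries. The low-Esr1 library was the lowest of either sham group, but both low-Esr1 sham libraries were above KO-labelled TAC 1. Its difference of 1.73 (SE 0.42; edgeR adjusted p = 0.642) became 0.56 without the 3. Gm33543 (chromosome 10, 95823973 to 95842930), an annotated protein-coding gene with no assigned role, gave 1.74 (edgeR adjusted p = 0.503) and 0.98. Esr1 itself gave 10.17 (SE 2.5; edgeR adjusted p = 0.67) and -0.34 without the 3. Genotype label and Esr1 level cannot be told apart in the TAC libraries.

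Mndal and Ifi205, neighbours of the interferon-inducible p200 family on chromosome 1 (173849126 to 173942491 and 174011998 to 174031810), had an on-off arrangement. Mndal had 0.0629, 0.131, 0.365 and 0 CPM in the KO-labelled TAC libraries and 8.46, 10.3 and 8.86 CPM in the KO-labelled sham libraries, against 0, 0.0536, 0.167 and 6.46 CPM in the WT-labelled TAC and 0.481, 0.0567 and 0.188 CPM in the WT-labelled sham libraries. It was high in all KO-labelled sham libraries and in WT-labelled TAC 4, and at or near 0 in the other 10. The fitted difference was -8.54 (SE 1.83; edgeR adjusted p = 0.503), a value that depends on the prior count for libraries near 0, and -4.27 without WT-labelled TAC 4. Ifi205 followed the same libraries at lower levels, with a fitted difference of -4.43 (edgeR adjusted p = 0.672), and -2.58 without WT-labelled TAC 4. Members of this family resemble each other in sequence, and the counting could split their reads. Wdfy1, an endosomal FYVE-domain protein, had 14.1, 32.97, 19.3 and 30.2 CPM in the KO-labelled TAC libraries and 5.49, 4.08 and 5.24 CPM in the KO-labelled sham libraries, against 3.94, 5.2, 18.9 and 17.1 CPM in the WT-labelled TAC and 15.3, 24.3 and 14.2 CPM in the WT-labelled sham libraries. It was low in all KO-labelled sham libraries and in WT-labelled TAC 1 and 2, and its difference was 2.96 (SE 0.64; edgeR adjusted p = 0.503). Gm11361, an annotated gene with no assigned role, was low in the same sham group, with a difference of 4.86 (SE 1.14; edgeR adjusted p = 0.642).

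**Figure D3:**
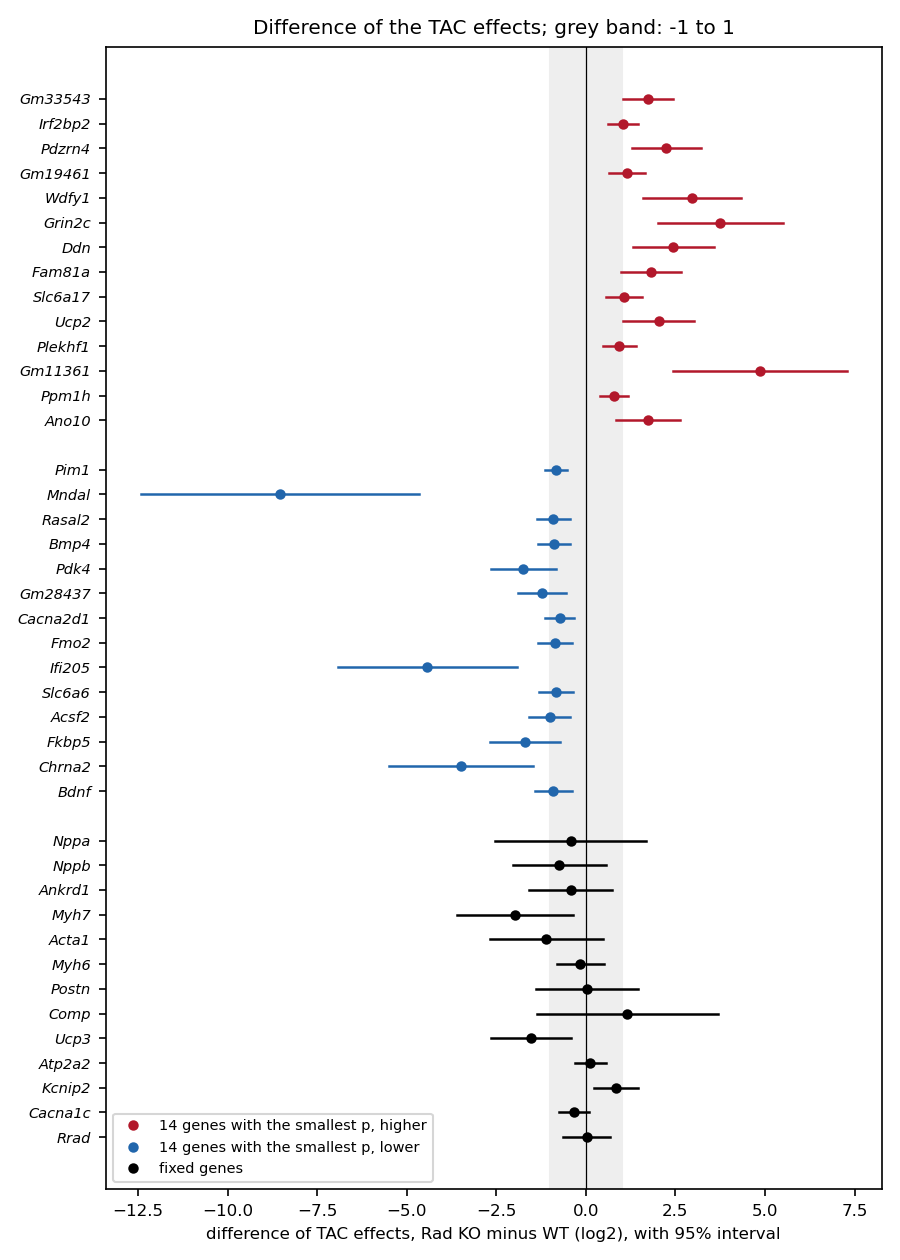
Difference of the TAC effects (Rad KO minus WT, log2) with its 95% interval for the 14 genes per direction with the smallest p and 13 fixed genes; the grey band spans -1 to 1. The intervals of Atp2a2, Myh6, Cacna1c and Rrad lie inside the band, while those of Nppa and Comp reach beyond it on both sides.

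Pdzrn4, a PDZ-domain protein of the LNX ubiquitin ligase family, differed by 2.25 (SE 0.46; edgeR adjusted p = 0.503) at 0.656 to 3.83 CPM. Slc6a17, a vesicular transporter of neutral amino acids, fell with TAC in the WT label (-1.51; edgeR adjusted p = 0.00112) and gave -0.44 in the KO label (adjusted p = 0.19), a difference of 1.07 (edgeR adjusted p = 0.539) that was 1.10 without the 3 sham libraries. Plekhf1, a phosphoinositide-binding endosomal protein, and Ppm1h, a protein phosphatase, differed by 0.93 and 0.79. Gm19461 gave 1.14, and 0.69 without the 3; it is annotated as antisense, and without stated strand its reads cannot be told from those of its partner. In the lower direction, Bmp4, a ligand of the BMP pathway, had 7.04, 7.12, 6.996 and 8.36 CPM in the KO-labelled TAC libraries and 8.83, 6.85 and 8.15 CPM in the KO-labelled sham libraries, against 9.84, 7.78, 7.9 and 10.2 CPM in the WT-labelled TAC and 4.94, 5.44 and 5.27 CPM in the WT-labelled sham libraries. WT-labelled TAC libraries were above WT-labelled sham libraries without overlap, whereas the KO-labelled groups overlapped, and the difference was -0.88 (SE 0.21; edgeR adjusted p = 0.642). Slc6a6, the taurine transporter, gave -0.83 (-0.47 without the 3), Fmo2, a flavin monooxygenase, -0.86, and Acsf2, an acyl-CoA synthetase, -1.01 (-0.44 without the 3). Fkbp5, a glucocorticoid-induced cochaperone, gave -1.71, Bdnf, the brain-derived neurotrophic factor, -0.91, and Chrna2, a nicotinic receptor subunit, -3.48 (-1.46 without the 3). Gm28437 (-1.23) is an unprocessed pseudogene whose reads may belong to a near-identical copy.

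**Figure D4:**
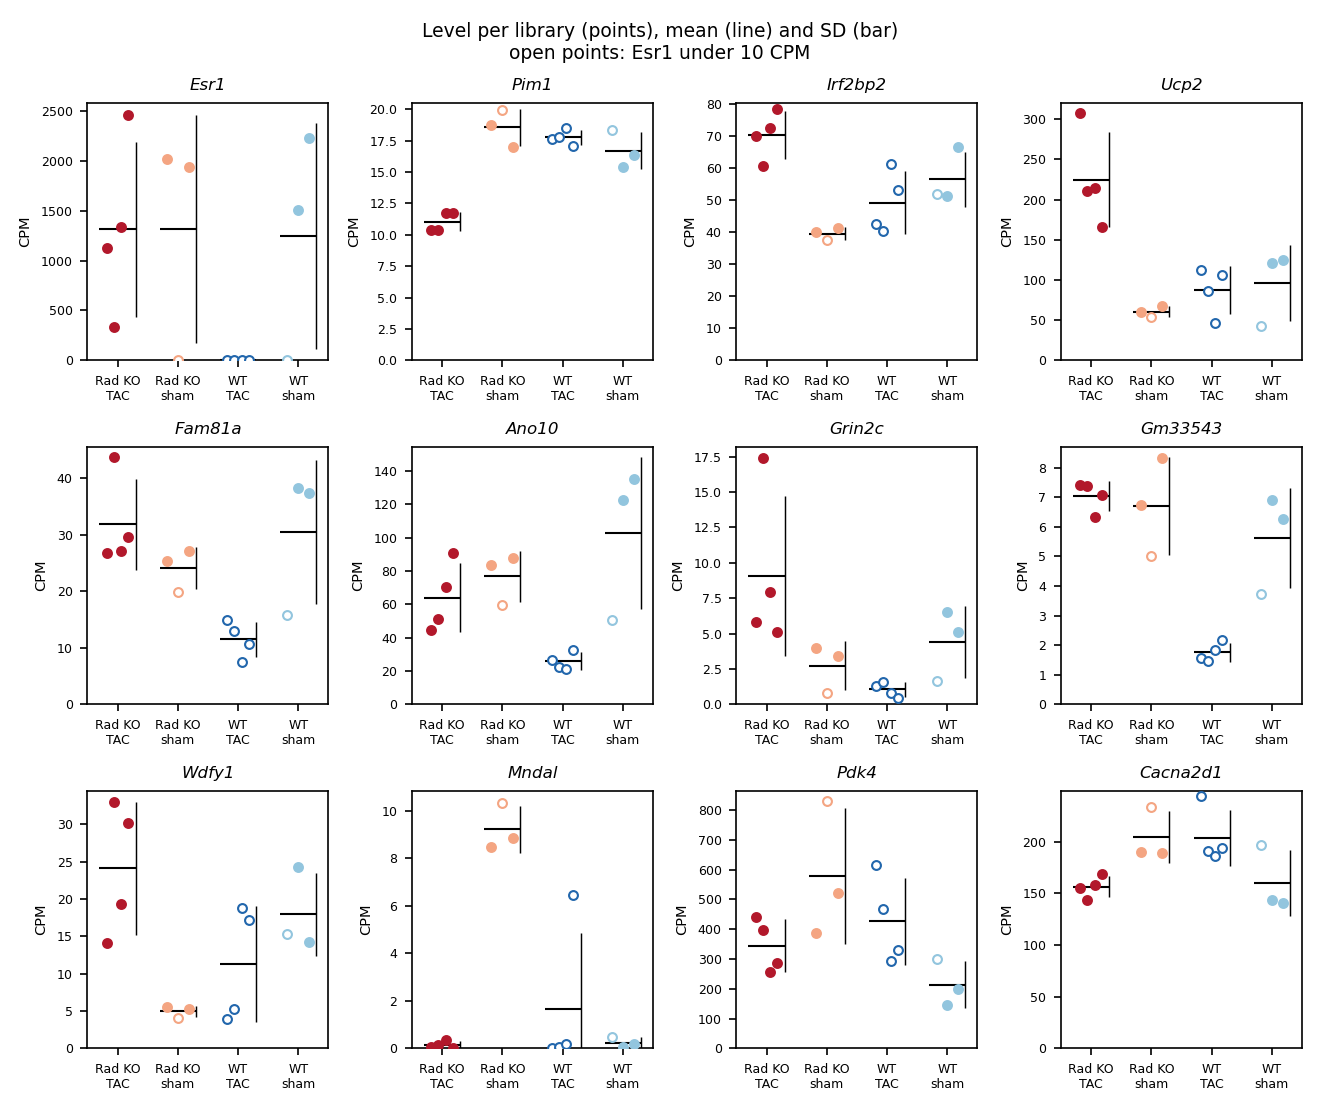
CPM per library of Esr1 and 11 of the genes with the smallest p in Rad KO TAC, Rad KO sham, WT TAC and WT sham libraries; each point is 1 library, the line the mean, the bar the SD, and open points mark libraries with Esr1 under 10 CPM. Pim1 is lowest and Ucp2 highest in all 4 Rad KO TAC libraries, and in Fam81a, Grin2c and Gm33543 all open points lie below all filled ones.

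The channel that Rad acts on came next. For 17 tested genes of voltage-gated calcium channels or RGK proteins, the median difference was -0.00 beside 0.00 over all genes, and -0.01 without the 3. Of the 17, 0 were called and 1 passed an unadjusted p under 0.05 in the lower direction (background 2.31%). That gene, Cacna2d1, encodes the alpha-2/delta-1 subunit, which raises the number of channels at the surface. It had 155, 144, 158 and 169 CPM in the KO-labelled TAC libraries and 190.3, 234 and 189 CPM in the KO-labelled sham libraries, against 244, 191, 186 and 194 CPM in the WT-labelled TAC and 197, 143 and 140.5 CPM in the WT-labelled sham libraries. KO-labelled TAC libraries were below KO-labelled sham libraries, WT-labelled TAC 1 stood above its group, and the low-Esr1 libraries were the highest of either sham group. Its difference was -0.73 (SE 0.19, interval -1.13 to -0.33; edgeR adjusted p = 0.672) and -0.32 without the 3 sham libraries. Cacna1c, the pore subunit of the L-type channel, had 239, 298, 289 and 296 CPM in the KO-labelled TAC libraries and 371, 392 and 299 CPM in the KO-labelled sham libraries, against 397, 302, 304 and 279 CPM in the WT-labelled TAC and 376, 284 and 305 CPM in the WT-labelled sham libraries. Its difference was -0.33 (interval -0.75 to 0.09; edgeR adjusted p = 0.967), and -0.02 without the 3. Gem, another RGK GTPase, gave 0.88 (SE 0.43; edgeR adjusted p = 0.949), and the sign turned to -0.27 without the 3. The RGK gene Rrad gave 0.02 (interval -0.64 to 0.68; edgeR adjusted p = 0.997; -0.01 without the 3), so that a 2-fold difference in its TAC effect lay outside the interval.

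Calcium cycling and adrenergic genes had median differences near 0 and 0 calls. For 25 of 28 calcium handling genes the interval lay within 1 log2 unit (background 66.6%), with a median difference of -0.08, and 0.03 without the 3 sham libraries. The share of such intervals rises with abundance. Over all genes it was 92.8% at a mean of 200 to 1000 counts and 93.8% at 1000 or more. A high share, here or in the lists below, is therefore not read as likeness of the labels. Atp2a2, the calcium pump of the sarcoplasmic reticulum, gave 0.12 (interval -0.30 to 0.55; edgeR adjusted p = 0.985), and 0.33 without the 3. Ryr2, the release channel, fell with TAC in the KO label (-0.62; edgeR adjusted p = 0.0491) and gave -0.18 in the WT label (adjusted p = 0.578), but the difference of -0.44 (SE 0.21; -0.14 without the 3) was not called (edgeR adjusted p = 0.949). Of 28 beta-adrenergic signalling genes, 0 passed an unadjusted p under 0.05, and 20 had an interval within 1 log2 unit, a share near the background. Their single estimates, picked here after their values were seen, ran as far as -1.36 for Ppp1r1a, an inhibitor of protein phosphatase 1, and -0.83 for Adra1a, an alpha-1 adrenergic receptor.

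Several potassium channel genes fell with TAC in the WT label, and the difference between labels did not pass the test. Of 28 genes for potassium and sodium channels and gap junctions 0 fell past the threshold in the KO label and 6 in the WT label, Kcnd2, Kcnh2, Kcnip2, Kcnj2, Kcnj3 and Kcnj5 (background of falling genes 0.489% in the KO label and 1.51% in the WT label). For the difference 0 were called, and 4 were higher and 1 lower at an unadjusted p under 0.05 (background 2.81% higher and 2.31% lower). The median difference was 0.01, and 0.07 without the 3 sham libraries. Kcnip2, the accessory subunit of the transient outward channel, had 163, 191, 242 and 298 CPM in the KO-labelled TAC libraries and 284, 199 and 286 CPM in the KO-labelled sham libraries, against 157, 117, 119 and 172 CPM in the WT-labelled TAC and 230.2, 327 and 312 CPM in the WT-labelled sham libraries. The WT-labelled groups did not overlap and the KO-labelled groups did, and the lowest sham library under either label was the one with low Esr1. Its difference was 0.84 (SE 0.29; edgeR adjusted p = 0.826), and 0.36 without the 3 sham libraries. Kcnd2, the pore subunit of that channel, gave 1.08 and 0.46, and Kcnj2, an inward rectifier, 0.51 and 0.25.

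Genes of fuel use gave 0 calls. In fatty acid use 29 of 34 genes had a negative difference, with a median of -0.28; 1 was higher and 6 were lower at an unadjusted p under 0.05 (background 2.81% higher and 2.31% lower). Pdk4, the kinase that shuts pyruvate out of the mitochondrial oxidation complex, had 441, 399, 255 and 285 CPM in the KO-labelled TAC libraries and 386, 831 and 522 CPM in the KO-labelled sham libraries, against 615, 468, 293 and 329 CPM in the WT-labelled TAC and 298, 144 and 198 CPM in the WT-labelled sham libraries. KO-labelled sham 2 was the highest library and WT-labelled sham 2 the lowest. The difference was -1.74 (SE 0.43; edgeR adjusted p = 0.67), and -0.91 without the 3 sham libraries. Ucp3, the muscle uncoupling protein, had 28.03, 27.6, 17.5 and 27.01 CPM in the KO-labelled TAC libraries and 52.3, 101 and 65.6 CPM in the KO-labelled sham libraries, against 31.2, 41.02, 16.7 and 67.8 CPM in the WT-labelled TAC and 56.8, 23.9 and 37.1 CPM in the WT-labelled sham libraries. KO-labelled TAC libraries lay below KO-labelled sham libraries, while the WT-labelled groups overlapped, and the difference was -1.54 (SE 0.53; edgeR adjusted p = 0.815) and -0.70 without the 3. Angptl4, a lipoprotein lipase inhibitor, gave -1.51, Cpt1a, of mitochondrial fatty acid entry, -0.44, and Cd36, a fatty acid transporter, -0.42. Without the 3 these were -0.01 for Angptl4, -0.15 for Cpt1a and -0.01 for Cd36. The median of the list was -0.04 without the 3 sham libraries. The interval lay within 1 log2 unit for 21 of 21 genes of the tricarboxylic acid cycle and 29 of 30 nuclear genes of oxidative phosphorylation (background 66.6%). Their median differences were -0.01 and 0.05, and 0.07 and 0.11 without the 3. Mitochondrially encoded genes gave a negative difference in 11 of 13, with a median of -0.30, -0.50 to -0.09 with single libraries left out and -0.15 without the 3 sham libraries; their summed level was highest in KO-labelled sham libraries, at 191840.0 to 212439 CPM in KO-labelled TAC and 242107 to 301096 CPM in KO-labelled sham, against 170753 to 213823 CPM in WT-labelled TAC and 182791 to 223871 CPM in WT-labelled sham libraries.

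Many matrix genes rose with TAC under both labels, and the estimates of their differences lay around 0. Of 48 extracellular matrix genes tested, 16 rose in the KO label (background 0.916%) and 20 in the WT label (background 2.29%) by edgeR, and 0 fell. The difference was called for 0 and passed an unadjusted p under 0.05 for 0, with a median of 0.09, -0.28 without the 3 sham libraries. Postn, periostin of activated fibroblasts, had 294, 219.96, 226 and 62.8 CPM in the KO-labelled TAC libraries and 37.5, 34.2 and 33.6 CPM in the KO-labelled sham libraries, against 115, 489.6, 424 and 227 CPM in the WT-labelled TAC and 32.3, 86.2 and 50.9 CPM in the WT-labelled sham libraries. TAC libraries exceeded sham libraries in both labels, KO-labelled TAC 4 was the lowest of its group, and the difference was 0.04 (interval -1.39 to 1.46; edgeR adjusted p = 0.997), with a turned sign, -0.78, without the 3. Comp, cartilage oligomeric matrix protein, had 139, 106, 38.3 and 9.12 CPM in the KO-labelled TAC libraries and 2.23, 2.64 and 3.1 CPM in the KO-labelled sham libraries, against 22.6, 123, 142 and 76.3 CPM in the WT-labelled TAC and 3.19, 15.99 and 3.26 CPM in the WT-labelled sham libraries. Its TAC effect was 4.77 in the KO label and 3.62 in the WT label, and the difference of 1.15 (interval -1.37 to 3.68; edgeR adjusted p = 0.979) was -0.05 without WT-labelled sham 2 and -0.07 without the 3. Among 24 TGF-beta and CCN genes, 6 rose in the KO label (background 0.916%) and 11 in the WT label (background 2.29%), and 5 differences were lower at an unadjusted p under 0.05 against a background of 2.31% (Bmp4, Gdf15, Smad7, Tgfbi and Tgfbr1). Gdf15, a stress-induced cytokine of the TGF-beta superfamily, had 3.39, 6.27, 2.98 and 2.74 CPM in the KO-labelled TAC libraries and 0.965, 2.31 and 1.55 CPM in the KO-labelled sham libraries, against 5.58, 9.12, 41.5 and 12.1 CPM in the WT-labelled TAC and 1.79, 1.7 and 1.13 CPM in the WT-labelled sham libraries. WT-labelled TAC 3 was far above all other libraries, and the difference of -2.21 (SE 0.86; edgeR adjusted p = 0.931) was -1.27 without it.

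Interferon-stimulated and cell cycle genes leaned the other way, again with no gene called. Of 28 interferon-stimulated genes 25 had a positive difference, 8 at an unadjusted p under 0.05 (background of higher genes 2.81%), and the median was 0.62, 0.34 to 0.78 with single libraries left out and 0.55 without the 3 sham libraries. The 3 negative members were Irf7 (-0.16) and the p200 family genes Ifi203 (-0.42) and Ifi204 (-0.27). Without the 3 sham libraries Irf7 gave -0.52 and Ifi204 -0.69. Mndal and Ifi205 of that family were not in the list. List members are not independent, and the list as a whole was not tested. Igtp, an immunity-related GTPase, had 26.2, 22.4, 12.5 and 15.3 CPM in the KO-labelled TAC libraries and 14.3, 20.03 and 12.2 CPM in the KO-labelled sham libraries, against 9.98, 12.2, 8.51 and 12.7 CPM in the WT-labelled TAC and 17.5, 33.7 and 20.1 CPM in the WT-labelled sham libraries. WT-labelled TAC libraries were below WT-labelled sham libraries, where sham 2 was highest, and the KO-labelled groups overlapped. Its difference was 1.43 (SE 0.38; edgeR adjusted p = 0.672). Iigp1, of the same family, gave 1.00, and Usp18, which removes ISG15, gave 1.02. By label, the list's median TAC effect was 0.37 in the KO label and -0.15 in the WT label, and 0 of the 28 rose past the threshold in either. The summed level of the list was 319 to 550 CPM in the KO-labelled TAC and 291 to 368 CPM in the KO-labelled sham libraries. In the WT label it was 309 to 414 CPM in the TAC and 371 to 444 CPM in the sham libraries. TAC and sham libraries overlapped under both labels. Macrophage and monocyte markers, which share interferon-responsive cells, gave a median difference of 0.23 over 16 genes, 0.07 to 0.41 with single libraries left out and 0.00 without the 3. Their summed level was 207 to 464 CPM in the KO-labelled TAC and 303 to 329.9 CPM in the KO-labelled sham libraries, against 311 to 458 CPM in the WT-labelled TAC and 334 to 431 CPM in the WT-labelled sham libraries. Fewer cells of a type and less RNA per cell cannot be told apart in whole ventricle, and the part of these cells in the result was not tested.

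Of 25 cell cycle genes 22 had a positive difference, 4 at an unadjusted p under 0.05 against a background of 2.81% (Aurkb, Cenpf, Pcna and Rrm2), with a median of 0.51, 0.36 to 0.77 with single libraries left out and 0.43 without the 3 sham libraries. Their summed level was 336 to 371 CPM in the KO-labelled TAC and 259 to 321 CPM in the KO-labelled sham libraries, against 300.4 to 475 CPM in the WT-labelled TAC and 345 to 369.9 CPM in the WT-labelled sham libraries. In the KO label the TAC libraries lay above the sham libraries; in the WT label the groups overlapped. Cenpf, a kinetochore protein, had 10.3, 18.1, 17.9 and 28.7 CPM in the KO-labelled TAC libraries and 57.01, 14.6 and 28.8 CPM in the KO-labelled sham libraries, against 9.91, 8.74, 5.23 and 4.42 CPM in the WT-labelled TAC and 40.3, 61.98 and 60.7 CPM in the WT-labelled sham libraries. It fell with TAC in the WT label (-2.94; edgeR adjusted p = 0.00361) and gave -0.84 in the KO label (adjusted p = 0.273), a difference of 2.10 (SE 0.56; edgeR adjusted p = 0.672) and 1.32 without the 3. Aurkb, a mitotic kinase, gave 2.51 (SE 0.63; edgeR adjusted p = 0.672) at 0.194 to 1.004 CPM, and Rrm2, of deoxynucleotide synthesis, 1.23.

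**Figure D5:**
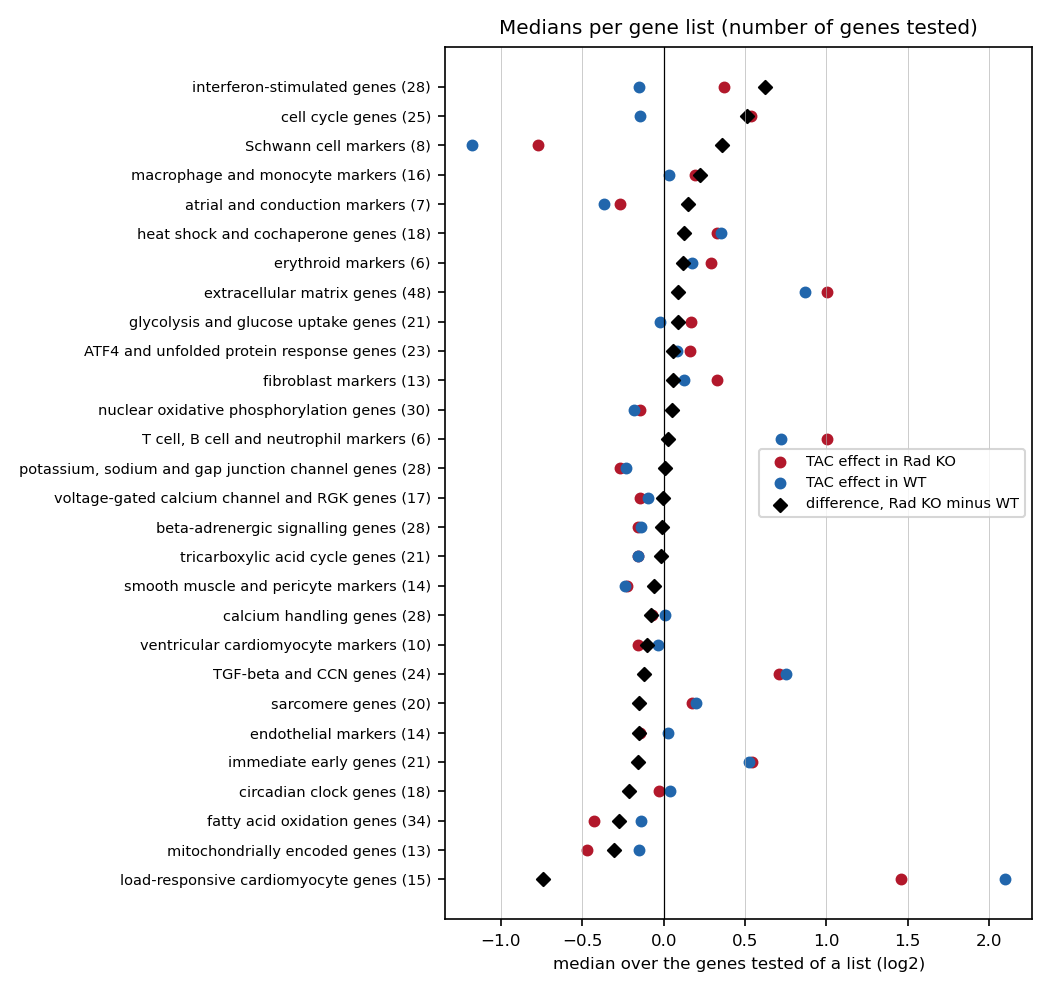
Median log2 TAC effect in Rad KO (red) and in WT (blue), and median difference, Rad KO minus WT (black), over the tested genes of each list with at least 5 tested genes. The difference lies lowest for load-responsive cardiomyocyte genes (-0.74) and highest for interferon-stimulated genes (0.62), and it is 0.09 for matrix, -0.08 for calcium handling and 0.05 for nuclear oxidative phosphorylation genes.

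Markers of the cells in the ventricle were set beside these results. The 10 ventricular cardiomyocyte markers were present in every library, at a summed 57957 to 65111 CPM in the KO-labelled TAC and 62612 to 67285 CPM in the KO-labelled sham libraries, against 56102 to 73523 CPM in the WT-labelled TAC and 55914 to 68519 CPM in the WT-labelled sham libraries. All 10 differences had an interval within 1 log2 unit (background 66.6%). Fibroblast markers summed to 2207 to 4595 CPM in the KO-labelled TAC and 2435 to 2853 CPM in the KO-labelled sham libraries, against 2440.3 to 3724 CPM in the WT-labelled TAC and 2234 to 3119 CPM in the WT-labelled sham libraries. Their median difference was 0.06, with a turned sign, -0.41, without the 3 sham libraries. Endothelial markers had a negative difference in 13 of 14 genes, with a median of -0.15 and 13 intervals within 1 log2 unit (background 66.6%). Schwann cell markers gave 0.36 over 8 genes (0.67 without the 3 sham libraries), smooth muscle and pericyte markers -0.06 over 14 (-0.11), and erythroid markers 0.12 over 6 (-0.73). Most defining lymphocyte and neutrophil markers were too low to test (9 of 15, Cd3e and Cd8a among them), and the list summed to 8.57 to 13.8 CPM in KO-labelled TAC libraries, 8.54 to 9.95 CPM in KO-labelled sham, 9.58 to 15.1 CPM in WT-labelled TAC and 8.66 to 11.3 CPM in WT-labelled sham libraries. Of the remaining lists, sarcomere genes (median -0.15, and 0.03 without the 3 sham libraries), heat shock and cochaperone genes (0.12 and -0.10), immediate early genes (-0.16 and -0.34), circadian clock genes (-0.21 and -0.01), unfolded protein response genes (0.06 and -0.02) and genes of glycolysis and glucose uptake (0.09) had 0 calls, and atrial and conduction markers gave 0.15 over 7 genes (-0.05 without the 3). Adipocyte markers left 2 genes to test.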

How the data were processed

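PolyA-enriched RNA of mouse ventricle was measured in 14 libraries, grouped and numbered per the labels. The authors deposited a raw count per gene and library in 1 table per genotype label, per the file headers. They also deposited a normalized signal (the count over 1 factor per library, as checked on the values), FPKM values (counts scaled by gene length and a library constant), and, per the file headers, log2 fold changes within each label with a p-value and an adjusted p-value. The submitters' processing notes name the build mm10 and the tools HISAT2, DESeq2 and edgeR; for versions, roles, the read counter and its strand setting, nothing is stated (not given in the sources used here). Coordinates are those of the files. The normalized signal was set within each table, so the counts alone were joined across tables, by gene ID. The tables hold 23925 genes (Rad KO) and 24279 (WT); 3932 genes in 1 table, with a total of at most 24 counts, were left out.

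The 14 libraries were fitted in 1 model of 4 groups by the quasi-likelihood method of edgeR 4.0.16 (R 4.3.3). Libraries were TMM-scaled, low genes were removed by filterByExpr (min.count 10, min.total.count 15), and p was adjusted after Benjamini and Hochberg over 14731 genes, at a threshold of 0.05. The SE is the size of the log2 difference over the square root of F, and intervals are 95%. DESeq2 1.42.0 and limma 3.58.1 were alternatives. Depth was 14546176 to 23314792 counts per library. The fit was tested on simulated data: in 132 calls, 3 were false. Named genes were the 14 per direction with the smallest p, 14 fixed genes, up to 3 per list, and up to 4 per class of TAC response; a few genes are not reported here. The 29 lists, the members, this rule and the alternatives were chosen with earlier results of these data known. Plots used Python 3.11.15 and matplotlib 3.10.9.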

Additional observations from a re-analysis of the deposited data

Results flagged for a closer look

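In 3 named genes every TAC library moved one way from the sham libraries under the Rad KO label and the opposite way under the WT label. The log2 differences of the TAC effects were 3.75 for Grin2c, 2.43 for Ddn and 0.39 for Pcna. None was called by edgeR, and the separation itself was not tested.

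In 21 of 248 gene and group pairs (124 named genes in the 4 KO-labelled TAC and the 4 WT-labelled TAC libraries), 1 library stood apart from the other 3. Chance marks about 1 in 20 groups, here 12.4. KO-labelled TAC 2 was highest for Nppa (1350.1 CPM), Nppb (605 CPM), Fam81a (43.7 CPM) and 6430548M08Rik (81.4 CPM), and lowest for Adra1a (12.1 CPM) and Dusp1 (56.1 CPM). KO-labelled TAC 1 was lowest for Cacna1c (239 CPM), Pdzrn4 (1.63 CPM) and S100a9 (0.377 CPM) and highest for Tcf21 (13.3 CPM). KO-labelled TAC 3 was highest for Hba-a2 (1.82 CPM) and Ms4a1 (0.791 CPM) and lowest for Ucp3 (17.5 CPM), and KO-labelled TAC 4 was highest for Bmp4 (8.36 CPM). WT-labelled TAC 1 was highest for Cacna2d1 (244 CPM), Flt1 (176 CPM), Ryr2 (1694 CPM) and Hba-a2 (25.7 CPM). WT-labelled TAC 2 was highest for Myot (113 CPM), and WT-labelled TAC 4 was highest for Mndal (6.46 CPM) and Ifi205 (1.91 CPM).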

How the results depend on the processing

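The count of 0 genes called held under DESeq2 size factors and upper-quartile scaling within edgeR. It also held without a filter on low counts, with a mean of at least 50 counts, and under limma-voom. Without the 3 sham libraries whose Esr1 was unlike the TAC libraries of their label, 1 WT-labelled sham library remained. That fit did not call the TAC effect of any gene under either label, so it could not bear on the count of 0. DESeq2 called 8 genes, 7 higher and 1 lower; the cause was not tested. Leaving out single libraries gave 0 to 4 genes, 0 to 4 of them higher: 13 of 14 fits called 0, and without WT-labelled sham 1 the 4 were Fam81a, Gm33543, Ostn and Ucp2. Without the 2 sham libraries with low Esr1, 2 genes were called, 2 of them higher (Esr1 and Lipo2); by construction Esr1 is then high in every library but the WT-labelled TAC libraries. With the replicate number as a block, 0 genes were called and 789 passed unadjusted; same-numbered libraries deviated from their group means with correlations of -0.142 to 0.142, so the numbers were not taken as pairs. Without the 3 sham libraries 51 of 126 named genes moved by more than 1 SE, against 0 to 5 in every other setting. Those settings left out 2 libraries at most, and no other set of 3 sham libraries was left out. The larger number is therefore not read as a trait of these 3. A list median was counted as moved only beyond the SD of the differences of its members. By that other rule 2 of 29 list medians moved without the 3 sham libraries, those of the fibroblast and adipocyte markers. A median not counted as moved could still turn its sign, as for the extracellular matrix genes (0.09, and -0.28 without the 3). Of the named genes 8 were called by DESeq2, 3 without WT-labelled sham 1 and 1 without the 2 sham libraries with low Esr1. A stricter p or an added minimum difference on the same fit can give no call where none was made. Depth limits low genes: below a mean of 20 counts, 0.375% of genes had an interval within 1 log2 unit.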
